A study of Arabidopsis thaliana with 24 samples.

Results

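The comparison asks what overexpressed MYB12 adds to plants that already overexpress PAP1. It was made by array title: the 3 arrays of WOX1-1 and the 3 arrays of WOX1-2, which carry both regulators, were set against the 3 arrays of pap1-D, which carries PAP1 alone. These are 9 of the 24 arrays of the series. All 24 hybridized total RNA from aerial parts of Arabidopsis thaliana at 3 weeks of age to the ATH1 GeneChip, in 8 genotypes of 3 arrays. The line pap1-D is a homozygous overexpressor of MYB75, also called PAP1, in the Col-0 wild type. WOX1-1 and WOX1-2 bear the same genotype label, a homozygous cross of MYB12OX with pap1-D, and nothing in the labels says how these 2 lines differ. MYB12OX is a homozygous MYB12 overexpressor in Col-0. Neither the labels nor the protocols give the promoters or the number of independent insertions. The remaining genotypes are Col-0, tt4, MYB12OX/tt4 and pap1-D/tt4. By the shared growth protocol, plants stood on agar with 1% sucrose at 22 °C with 16 h of light and 8 h of dark. A drought experiment in the same protocol is tied to no array.

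MYB12 is an R2R3-MYB transcription factor known for switching on the early flavonoid genes that lead to flavonols, the pale ultraviolet-absorbing flavonoids. PAP1 is a relative of it that works with bHLH partners and switches on the late genes that lead to anthocyanins, the red and purple pigments. Both branches draw on the same precursors: chalcone synthase, the enzyme lost in tt4, opens the pathway, dihydroflavonols are turned into flavonols by flavonol synthase or into anthocyanins from dihydroflavonol reductase (DFR) onward, and glycosyl- and acyltransferases decorate both products.

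Signals below are the deposited MAS5 intensities. A change is the difference between group means of log2(signal + 42.6), given ± its SE in a single limma fit that holds all 24 arrays, and a probe set passed at an adjusted p under 0.05. The added 42.6 equals 170.4, the median of all signals, divided by 4, and makes the changes of dim probe sets look smaller than they are. Of 22746 probe sets, 14935 were tested. No detection calls come with the table, and low signals may be background. Only probe sets paired with 1 gene in the annotation used here are named, and MYB12, PAP1 and chalcone synthase are not among them.

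Some arrays stood apart from the others of their genotype in stress genes. STZ, a zinc-finger repressor rapidly induced by many stresses, read 4827, 535 and 546 on pap1-D arrays 1, 2 and 3, 2382, 559 and 687 on WOX1-1, and 1272, 635 and 946 on WOX1-2. ORA47, an early jasmonate and stress factor, read 1525, 381 and 241 on pap1-D and 539, 281 and 268 on WOX1-1. The first arrays of pap1-D and WOX1-1 were thus the high ones for both genes. WRKY53, a stress and senescence factor, was also highest on the first pap1-D array, at 672 against 245 and 165. Their part in the results was not tested beyond refitting without these arrays. The refit without the first pap1-D array is given with the counts for both lines, for each line and for the differences between effects. It is not given for the average over 3 backgrounds, for shared signs and calls, or for arrays that do not overlap. The refit without both first arrays is given with the count over both lines.

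The position of the arrays in the series listing is a further concern. Genotypes are listed as Col-0, MYB12OX, pap1-D, WOX1-1, WOX1-2, MYB12OX/tt4, pap1-D/tt4 and tt4, and several genes described below run along that order whichever regulator is present. The 6 WOX1 arrays lie on average 4.5 places after the pap1-D arrays. The labels give no harvest, hybridization or scan order, so whether the listing stands for one was not tested, and position and genotype cannot be fully told apart.

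One probe set without a gene name follows MYB12OX through the series. It was picked because it passed in the same direction in all 3 backgrounds with MYB12 added. It is therefore no independent check of the genotype labels, and which gene it measures was not tested. It read 38.8, 18.5 and 30.1 on the pap1-D arrays, 2426, 2346 and 2013 on the WOX1-1 arrays, and 2305, 2144 and 2307 on the WOX1-2 arrays. All 6 WOX1 arrays lay far above all 3 pap1-D arrays, and the lines had the same mean within their spread, 2262 ± 219 (SD, n = 3) in WOX1-1 and 2252 ± 93.6 (SD, n = 3) in WOX1-2. The change was 5.01 ± 0.09 (limma adjusted p = 2.44e-21). It was 4.77 in MYB12OX against Col-0 and 5.15 in MYB12OX/tt4 against tt4. Every array whose label names MYB12OX, WOX1 lines included, had the high signal, and every other array had a signal of 50.7 or lower.

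A second unnamed probe set fell wherever MYB12 was added. On the pap1-D arrays it read 4157, 4142 and 4349, on WOX1-1 2909, 3034 and 2997, and on WOX1-2 2663, 2896 and 2635. Again the groups did not overlap. The change was -0.56 ± 0.05 (limma adjusted p = 6.23e-06), a 1.48-fold lower mean, and it was almost the same size in the other backgrounds, -0.53 against Col-0 and -0.55 against tt4. These were the only 2 probe sets that passed and moved the same way in all 3 backgrounds. The signals on all 24 arrays show both of them stepping with MYB12OX. The falling one was also lower late in the listing, where the genotypes carry tt4. Its mean was 4438 in Col-0 and 4216 in pap1-D, but 4013 for pap1-D/tt4 and 3844 for tt4. Among genotypes with MYB12 it was 3052 in MYB12OX, 2980 and 2731 in the WOX1 lines, and 2609 in MYB12OX/tt4. With the place as a covariate its adjusted p was 0.0678.

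**Figure D1:**
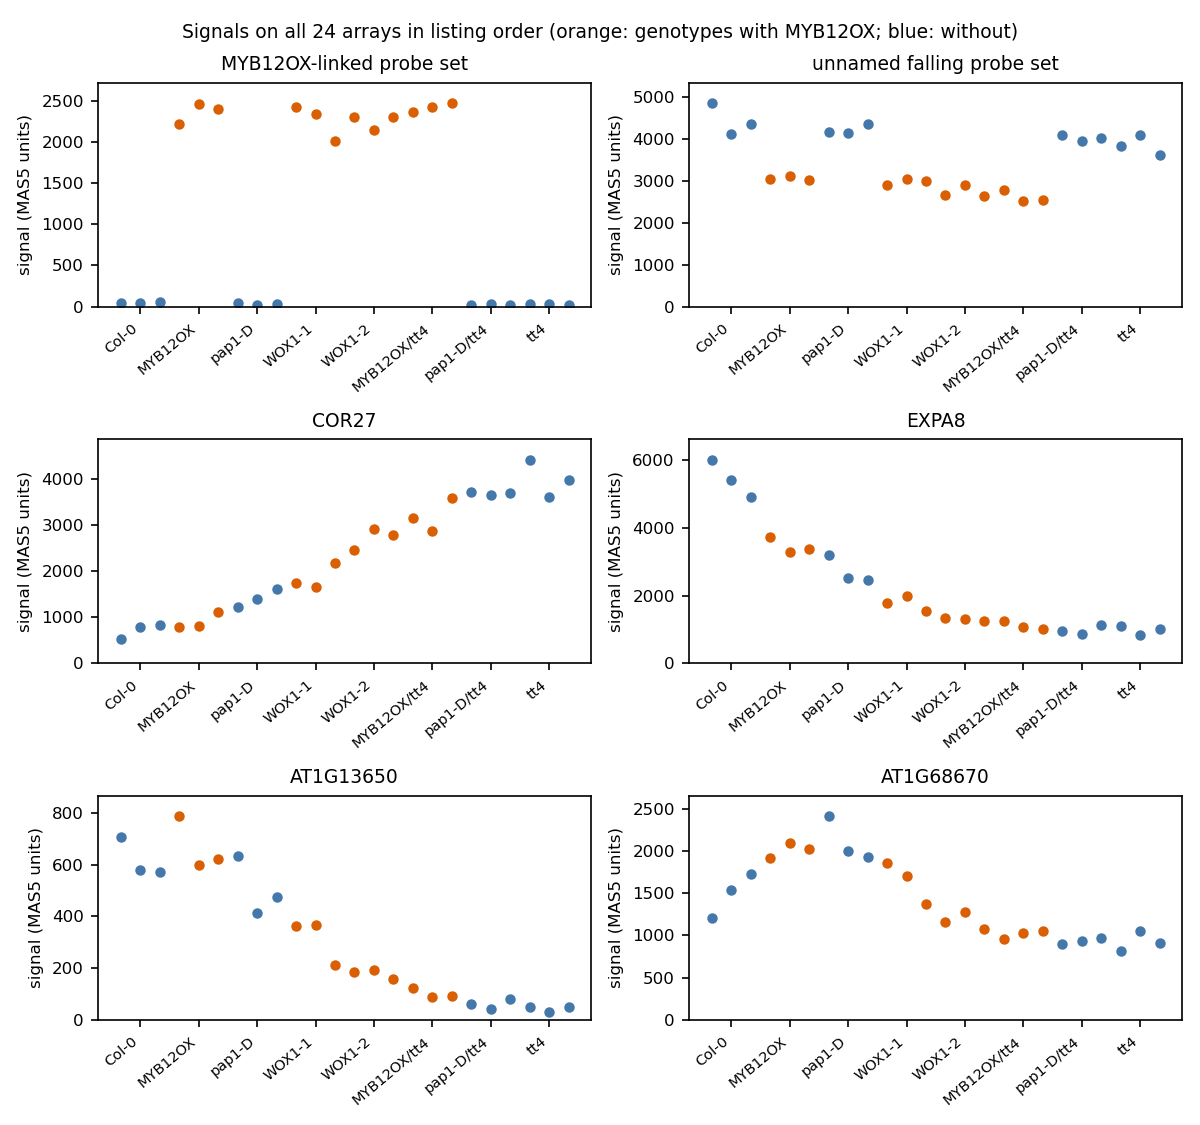
Signal (MAS5 units, vertical axis from 0) of 2 unnamed probe sets and 4 genes on all 24 arrays, in listing order along the horizontal axis; orange points are genotypes with MYB12OX, blue points those without. The top panels step with MYB12OX, whereas COR27 runs upward and EXPA8 and AT1G13650 downward along the listing in orange and blue points alike. Genotypes late in the listing also carry tt4, so place and mutation cannot be told apart.

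Across all probe sets tested, 160 of 14935 (1.07%) passed in both WOX1 lines against pap1-D, 47 higher (0.315%) and 113 lower (0.757%). The changes were small: the median size among those 160 was 0.42 on the log2 scale, and 3 reached 2-fold. Of the 160, 69 carry a gene name. The same-numbered arrays of pap1-D, WOX1-1 and WOX1-2 deviated together, and with the number as a block 324 passed, all 160 among them. Without the first pap1-D array 18 passed, and without the first arrays of pap1-D and WOX1-1 27 passed, an alternative added after the data were seen. The second pap1-D array also mattered, with 42 passing without it, as did the third WOX1-1 array with 61, the second WOX1-2 array with 93 and the third WOX1-2 array with 70.

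The lines contributed unequally. WOX1-2 differed from pap1-D in 355 probe sets (2.38%), 118 higher and 237 lower, and 13 of them reached 2-fold. WOX1-1 differed in 7 (0.0469%), 2 higher and 5 lower. With the number as a block these counts were 551 and 19, and without the first pap1-D array they were 78 and 4. The WOX1-2 count was also lower without the second pap1-D array (217) and without the second (179) or the third (74) WOX1-2 array, and the WOX1-1 count was 3 without the second pap1-D array or the third WOX1-1 array. When the lines were tested against each other, no probe set passed in limma (0%), the smallest adjusted p being 0.129, although 1242 had an unadjusted p under 0.05 and 12 passed with the block. For 147 of the 160 probe sets (91.9%) the WOX1-1 mean lay between the pap1-D and WOX1-2 means, against 41.9% of all probe sets tested. The 160 were chosen on the mean of both lines, which favours lines on the same side of pap1-D and raises this share. By distance alone, the WOX1-2 mean was further from pap1-D than the WOX1-1 mean in 147 (91.9%), against 58.4% of all probe sets tested. WOX1-1 also lies between pap1-D and WOX1-2 in the listing, so line and place cannot be told apart here.

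**Figure D2:**
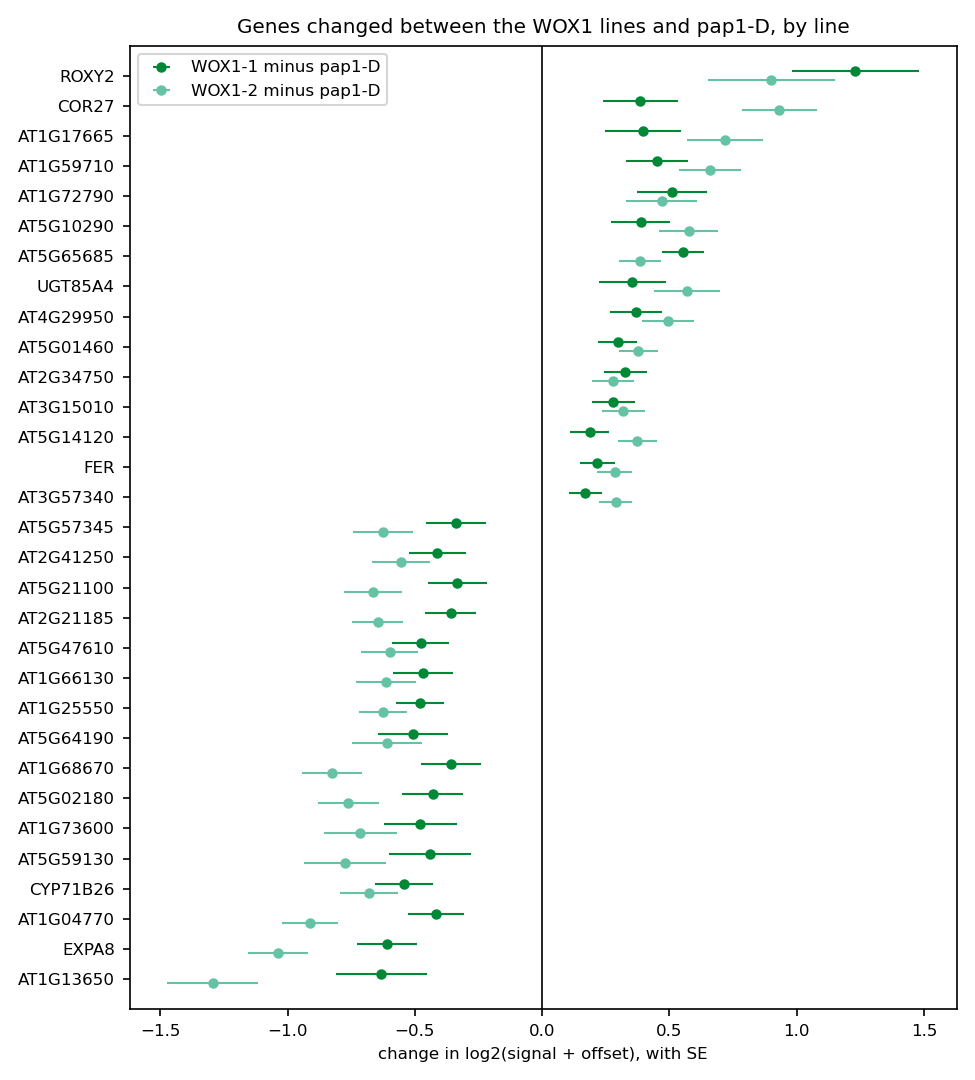
Change in log2(signal + offset) from pap1-D to WOX1-1 (dark green) and to WOX1-2 (light green), points with SE bars. Shown are named genes that passed in the comparison of both lines with pap1-D and whose WOX1 arrays did not overlap the pap1-D arrays. That choice fixes the same sign in both lines, so the shared sign is no result. EXPA8 changed by -0.61 in WOX1-1 and -1.04 in WOX1-2.

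Among the named genes, COR27 rose by 0.66 ± 0.13 (limma adjusted p = 0.0139). COR27 is induced by cold and acts on the clock and on light signalling. It read 1220, 1395 and 1620 on pap1-D, 1736, 1666 and 2175 on WOX1-1, and 2462, 2918 and 2782 on WOX1-2. The lowest WOX1 array lay just above the highest pap1-D array, and most of the difference came from WOX1-2, at 0.93 ± 0.15 against 0.39 ± 0.15 in WOX1-1. Its adjusted p was 0.152 without the first pap1-D array. In genotypes without MYB12 the signal ran from 517, 784 and 823 in Col-0 to 3719, 3664 and 3696 in pap1-D/tt4, and tt4 stood at 4433, 3611 and 3982. Col-0 differs from these tt4 genotypes in chalcone synthase as well as in place, which cannot be told apart here.

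The largest named rise with this offset belonged to ROXY2, a CC-type glutaredoxin best known from anther development. It read 13.3, 17.2 and 40.8 on pap1-D, 95.9, 108 and 130 on WOX1-1, and 81.6, 99.1 and 60.5 on WOX1-2. That is a rise of 1.07 ± 0.22 (limma adjusted p = 0.0178, and 0.163 without the first pap1-D array). It is a difference between dim signals, whose size depends on the offset, at 2.15 with none and 0.45 with the median of all signals. The pap1-D arrays were the low group: Col-0 read 85.5, 146 and 143, in the same range as the WOX1 lines. In MYB12OX against Col-0 its change was -0.48 (adjusted p = 0.451).

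Other named genes that rose did so by less. AT5G65685 read 839, 741 and 934 on pap1-D, 1120, 1290 and 1335 on WOX1-1, and 1104, 1219 and 994 on WOX1-2, a rise of 0.47 ± 0.07 (limma adjusted p = 0.00251). It is the only named rise that passed in each line on its own (0.55 in WOX1-1, adjusted p = 0.00437; 0.38 in WOX1-2, adjusted p = 0.0146) and it passed whichever of the 9 arrays was left out. The signal in pap1-D/tt4 was lower still, at 576, 640 and 609, while tt4 and MYB12OX/tt4 lay between 1116 and 1269. AT5G65685 was thus lowest in the genotypes with PAP1 and without MYB12.

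UGT85A4, a UDP-glycosyltransferase, rose by 0.46 ± 0.11 (limma adjusted p = 0.0478), from 208, 284 and 290 on pap1-D to a range of 332 to 484 with a median of 347 on the WOX1 arrays. Its adjusted p was 0.422 without the first pap1-D array, and of the 9 fits leaving out 1 array, 1 kept its call. FER encodes the receptor kinase FERONIA, which senses RALF peptides at the cell wall. Its 6 WOX1 signals, between 3530 and 4121, all exceeded the pap1-D signals of 2897, 3295 and 3379, a rise of 0.25 ± 0.06 (limma adjusted p = 0.0441, and 0.407 without the first pap1-D array). Of the 9 fits leaving out 1 array, 3 kept its call. The remaining rises named by the rule, AT1G17665, AT1G59710, AT1G72790, AT5G10290, AT4G29950, AT5G01460, AT2G34750, AT3G15010, AT5G14120 and AT3G57340, lay between 0.23 and 0.56, and all of these lost their call without the first pap1-D array. Of the 9 fits leaving out 1 array, from 1 (AT1G17665, AT3G15010 and AT3G57340) to 8 (AT1G59710) kept the call. None of these genes carries a symbol in the RefSeq table, and the arrays of the groups did not overlap for any of them, as the rule requires. Such separation of the 6 arrays from the 3 was seen in 708 of the 14935 probe sets (4.74%).

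EXPA8, an alpha-expansin that loosens the cell wall during growth, had the fall with the smallest adjusted p among named genes. It read 3208, 2531 and 2469 on pap1-D, 1789, 1988 and 1544 on WOX1-1, and 1348, 1301 and 1262 on WOX1-2. The groups did not overlap, and the mean was 1.78-fold lower, a change of -0.82 ± 0.10 (limma adjusted p = 1.6e-04). EXPA8 passed whichever of the 9 arrays was left out. In genotypes without MYB12, EXPA8 read 6027, 5430 and 4909 in Col-0 and 1098, 841 and 1013 in tt4. These genotypes differ in chalcone synthase as well as in place, so mutation and place cannot be told apart here.

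AT1G13650 had the largest named fall, -0.96 ± 0.15 (limma adjusted p = 0.00376). It read 632, 411 and 474 on pap1-D, 363, 368 and 213 on WOX1-1, and 185, 192 and 158 on WOX1-2. The groups were separate, with the change larger in WOX1-2 (-1.29) than in WOX1-1 (-0.63, adjusted p = 0.413), and without the first pap1-D array the adjusted p was 0.062. In tt4 the signal was 50.8, 30.4 and 51.3.

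AT1G04770, kept in the list of genes known to respond to sulfur deficiency, fell by 0.66 on the log2 scale (SE 0.10, limma adjusted p = 0.00118). It read 562, 632 and 578 on pap1-D, 452, 420 and 425 on WOX1-1, and 304, 325 and 255 on WOX1-2. The arrays of each line lay close together, WOX1-1 below pap1-D and WOX1-2 below WOX1-1. It was the only tested gene of that list of 8. CYP71B26, a cytochrome P450, read 973, 779 and 812 on pap1-D and between 466 and 643 with a median of 530 on the WOX1 arrays, a change of -0.61 ± 0.10 (adjusted p = 0.00376, and 0.062 without the first pap1-D array). It is one of the named genes that also fell in MYB12OX against Col-0, by 0.65 on the log2 scale, but its change against tt4 was -0.01.

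AT1G25550 and AT1G68670 fell with PAP1 present, whereas their estimates with MYB12 in Col-0 were positive. AT1G25550 read 2550, 2386 and 2120 on pap1-D, 1752, 1802 and 1476 on WOX1-1, and 1435, 1582 and 1504 on WOX1-2, a change of -0.55 ± 0.08 (limma adjusted p = 0.0013). AT1G68670 read 2409, 2000 and 1924 on pap1-D, 1850, 1703 and 1376 on WOX1-1, and 1161, 1271 and 1077 on WOX1-2, a change of -0.59 ± 0.10 (limma adjusted p = 0.00662, and 0.106 without the first pap1-D array). In MYB12OX against Col-0 their changes were 0.28 and 0.44, neither past the threshold, and the difference between the effects passed for both, at -0.83 (adjusted p = 0.00265) and -1.03 (adjusted p = 0.00265). The remaining falls named by the rule, AT5G59130, AT1G73600, AT5G02180, AT5G64190, AT1G66130, AT5G47610, AT2G21185, AT5G21100, AT2G41250 and AT5G57345, lay between -0.61 and -0.48 and have no symbol in the RefSeq table. They too lost their call without the first pap1-D array. Of the 9 fits leaving out 1 array, from 3 (AT5G59130) to 8 (AT2G21185 and AT5G02180) kept it.

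**Figure D3:**
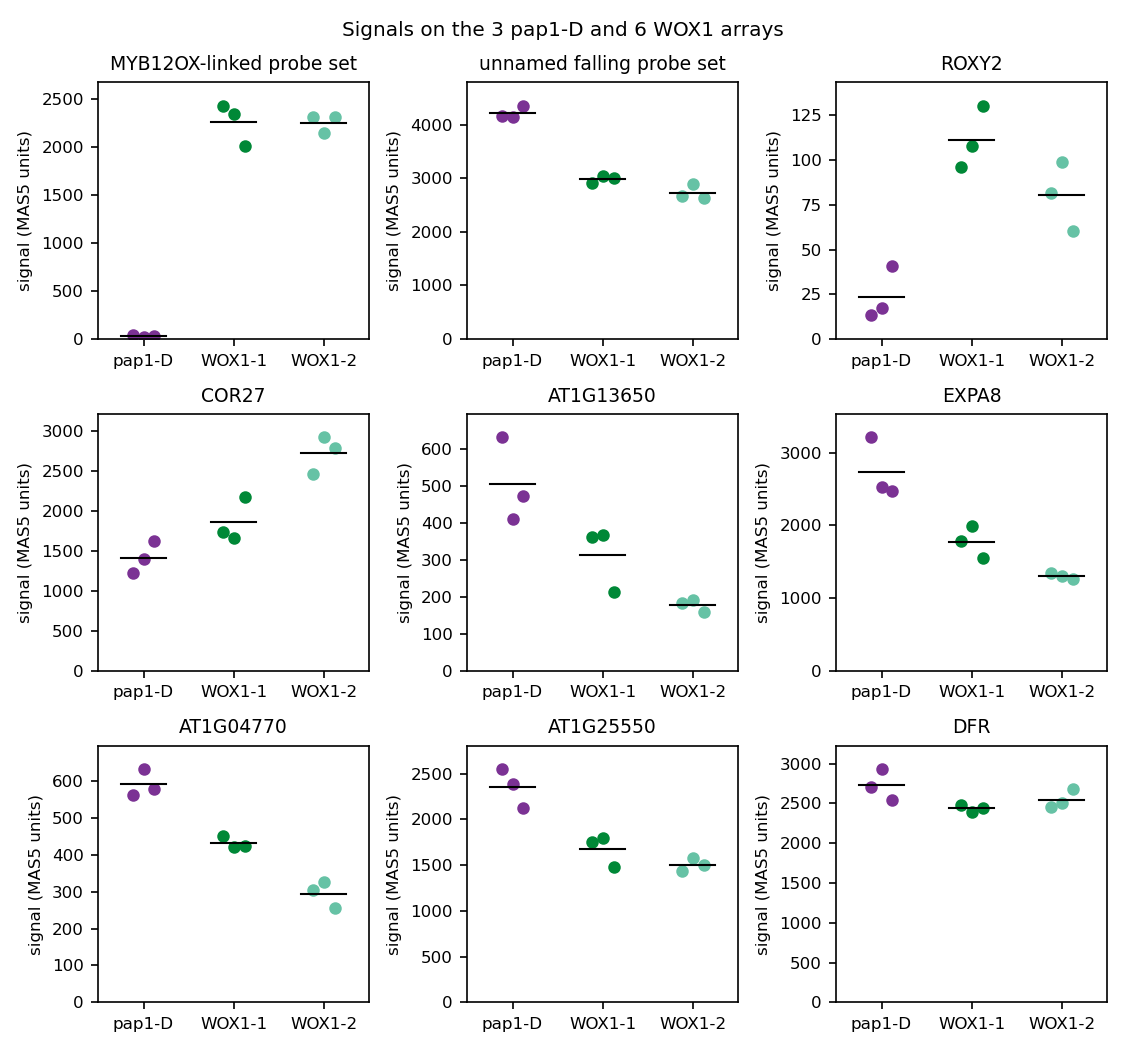
Signal (MAS5 units, vertical axes from 0) of 2 unnamed probe sets and 7 genes on the 3 arrays each of pap1-D, WOX1-1 and WOX1-2; points are arrays and lines are means. EXPA8 reads 2469 or more on every pap1-D array and 1988 or less on every WOX1 array, whereas DFR stays between 2392 and 2930 throughout.

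In the flavonoid pathway, no tested gene passed. Of the 10 listed genes of the anthocyanin branch 4 were tested, and of the 6 of flavonol glycosylation 3 were tested. The 4 anthocyanin genes all had lower means in the WOX1 lines, with a median change of -0.22 against 0.01 over all probe sets tested, and none was past the threshold, also with the block. DFR read 2706, 2930 and 2547 on pap1-D, 2484, 2392 and 2448 on WOX1-1, and 2451, 2507 and 2681 on WOX1-2. The change was -0.13 ± 0.17 (limma adjusted p = 0.855), with a 95% interval of -0.47 to 0.22. In Col-0 the signals were 25.6, 73.6 and 14.8, far below both pap1-D and the WOX1 lines.

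UF3GT, which adds xylose to anthocyanins, read 841, 837 and 763 on pap1-D, 733, 643 and 715 on WOX1-1, and 611, 647 and 713 on WOX1-2. The arrays did not overlap, but the change of -0.25 ± 0.11 did not pass (limma adjusted p = 0.38). The anthocyanin malonyltransferase AT5MAT was separate too, at 379, 355 and 336 on pap1-D against 279 to 321 with a median of 294 on the WOX1 arrays, with a change of -0.23 ± 0.14 (limma adjusted p = 0.562). AT4G14090, listed as the anthocyanin glucosyltransferase UGT75C1, read 408, 609 and 543 on pap1-D and 398 to 480 on the WOX1 arrays, which overlap (change -0.21 ± 0.14). The 95% intervals of UF3GT, AT5MAT and AT4G14090 reach down to -0.49, -0.53 and -0.50, so falls of that size lie within the error.

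Flavonol decoration did not pass either. UGT78D2, a glucosyltransferase that serves both flavonols and anthocyanins, read 554, 626 and 534 on pap1-D, 528, 439 and 503 on WOX1-1, and 470, 444 and 469 on WOX1-2, without overlap and with a change of -0.24 ± 0.12 (limma adjusted p = 0.418). UGT78D1, a flavonol rhamnosyltransferase, changed by -0.32 ± 0.16 (adjusted p = 0.433), with pap1-D at 257, 295 and 301 and the WOX1 arrays between 151 and 293. AT1G06000, listed as the rhamnosyltransferase UGT89C1, was dim at 37.1 to 55.6 on pap1-D and 30.6 to 70.0 on the WOX1 arrays. CHIL, a chalcone isomerase-like protein that aids chalcone synthase, read 200, 195 and 204 on pap1-D and 160 to 268 on the WOX1 arrays (change 0.06, 95% interval -0.50 to 0.62). CHIL was the only 1 of 10 core genes tested, and none of the 17 listed flavonoid regulators was, so the early genes that MYB12 is known for are mostly not analysed here.

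For the supply of precursors, 2 of 12 shikimate genes and 2 of 12 lignin and sinapate genes were tested. None passed over both lines. The shikimate genes AT5G66120 and AT1G22410 changed by -0.03 and -0.08, and of the lignin and sinapate list HCT, a hydroxycinnamoyl transferase, changed by -0.18 ± 0.06 (limma adjusted p = 0.184) and ALDH2C4, which makes ferulate and sinapate, by 0.10 ± 0.06. In WOX1-2 taken alone HCT passed, at -0.27 (adjusted p = 0.0423).

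**Figure D4:**
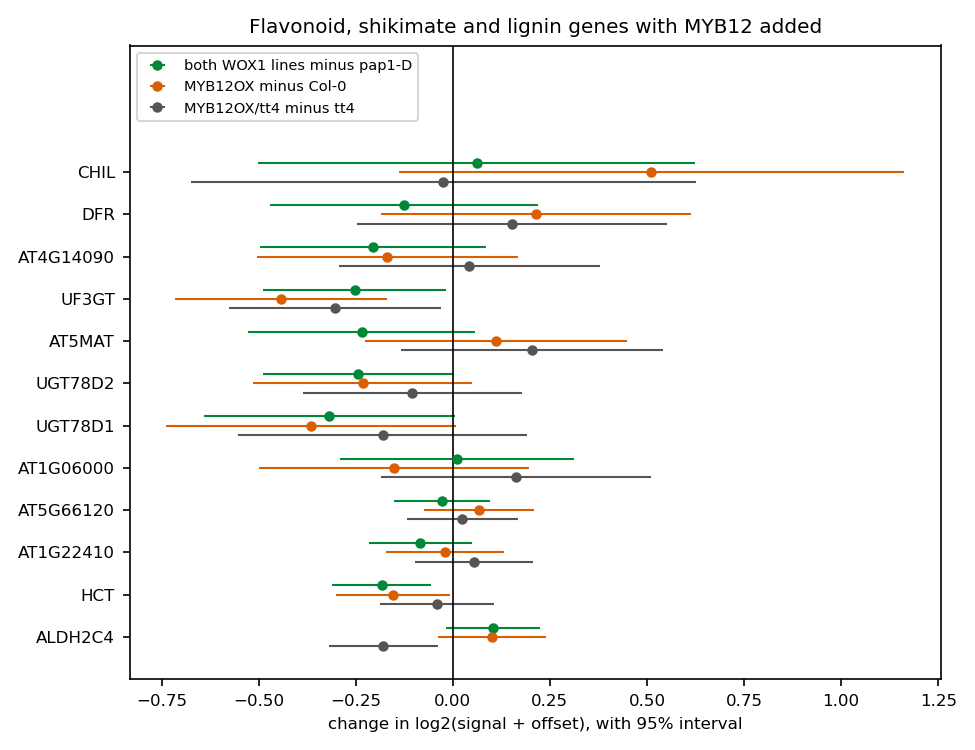
Change in log2(signal + offset) with 95% intervals when MYB12 was added to pap1-D (green), Col-0 (orange) and tt4 (grey), for 12 genes of the flavonoid, shikimate and lignin lists. The green intervals include 0 except for UF3GT, UGT78D2 and HCT, and for UF3GT all 3 estimates are negative, at -0.25, -0.44 and -0.30. None of these 3 passed, and UF3GT was dim in the Col-0 and tt4 backgrounds.

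Over all 22 gene lists, 43 of 220 genes could be tested, with 1 higher (COR27), 2 lower (EXPA8 and AT1G04770) and a median change of -0.03, beside the shares of 0.315% higher and 0.757% lower over all 14935 probe sets. The other cold and drought genes tested, COR47, COR15A and COR15B, changed by 0.19, 0.02 and -0.02. None of the 3 glucosinolate genes passed (BCAT4 -0.21, AT2G31790 -0.31, UGT74B1 -0.03), nor the clock gene GI (0.00), nor the auxin genes GH3.3, WES1 and IAA29 (0.56, 0.18 and 0.06). The starch enzyme gene APL3 changed by -0.21, and the brassinosteroid growth gene EXO by 0.05. The jasmonate-responsive defensin PDF1.2 scattered from 166 to 2256 within pap1-D alone.

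Besides EXPA8, 6 expansins of the wall list were tested and none passed, their changes running from -0.44 for EXPB1 to 0.33 for EXLA2. Families gathered by name moved as little. Of 22 UDP-glycosyltransferases 1 was higher (UGT85A4), of 13 cytochromes P450 1 was lower (CYP71B26), and of 12 expansins 1 was lower (EXPA8), beside 0.315% higher and 0.757% lower over all probe sets tested. None passed among 21 genes of the plastid NDH complex, 7 glutathione transferases, 6 WRKY factors, 5 bHLH factors, 5 xyloglucan enzymes and 5 photosystem or antenna proteins.

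Few tissue markers could be tested: 2 of 9 listed genes of green tissue, 1 of 5 of root, and 2 of 8 of anther and flower. The summed signal of RCA and PORB, rubisco activase and a chlorophyll-synthesis enzyme, lay between 42160 and 45790 on pap1-D and between 40500 and 44470 on the WOX1 arrays. PYK10, a beta-glucosidase that is most abundant in roots, read 1965 to 2105 on pap1-D and 1439 to 2606 on WOX1 (change -0.03). The anther genes ATA27 and AT5G07230 were dim, with summed signals of 34.2 to 64.8 on pap1-D and 7.86 to 231 on the WOX1 arrays. None of these genes passed, and no seed marker was tested. Fewer cells of a type and less RNA per cell cannot be told apart in such bulk samples.

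The same regulator was added in 2 other backgrounds that share no array with this comparison. MYB12OX differed from Col-0 in 150 probe sets (1%), 84 higher and 66 lower, and MYB12OX/tt4 from tt4 in 28 (0.187%), 19 higher and 9 lower, or 97 with the block. With Col-0, 17 probe sets passed in the same direction, which is 10.6% of the 160 and 11.3% of the 150. With tt4, 2 did, which is 1.25% of the 160 and 7.14% of the 28, namely the unnamed pair described first. In sign alone, 128 of the 160 (80.0%) moved in MYB12OX against Col-0 as they did here, against 55.8% of all probe sets tested. In MYB12OX/tt4 against tt4 only 49 did (30.6%, against 45.1%). MYB12OX arrays are listed 3 places after Col-0 on average, and MYB12OX/tt4 arrays 6 places before tt4. Agreement in sign was high where MYB12 follows its control in the listing and low where it precedes it. These 2 comparisons differ in chalcone synthase as well, which is lost in tt4, so place and background cannot be told apart here.

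**Figure D5:**
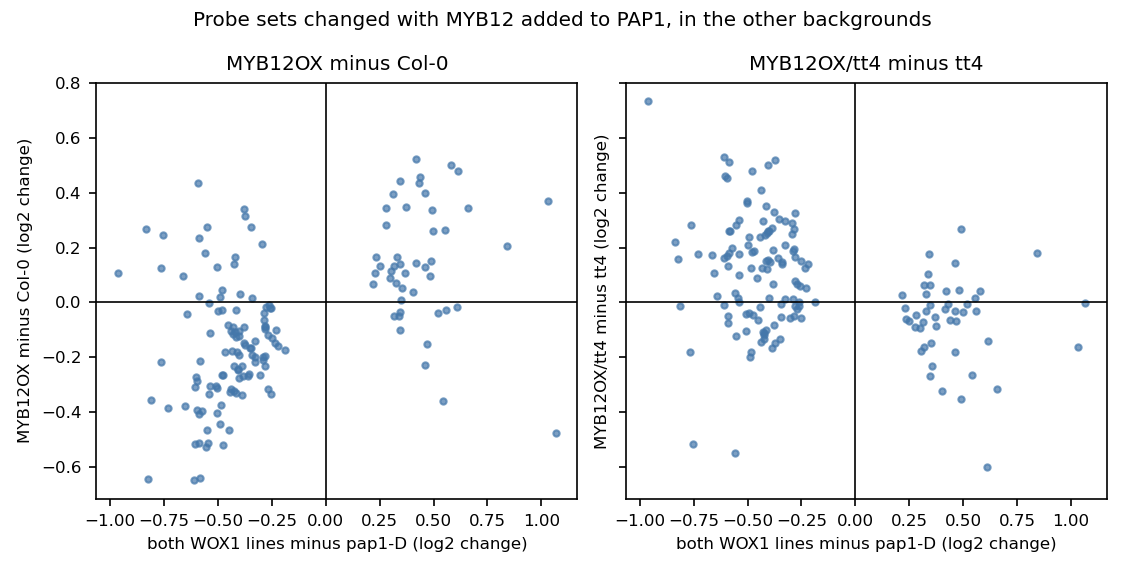
Change with MYB12 added to PAP1 (horizontal axis) against the change in MYB12OX minus Col-0 (left) and MYB12OX/tt4 minus tt4 (right), log2 scale, 1 point per probe set that passed in both WOX1 lines against pap1-D, without the MYB12OX-linked probe set at 5.01. Points share the sign of the horizontal axis in 80% of cases on the left and 30.6% on the right, counted over all 160.

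The last and the first genotype of the listing both lack MYB12. In tt4 against Col-0, which have no overexpressed regulator and in which 5449 probe sets passed (36.5%), 155 of the 160 (96.9%) moved as they did from pap1-D to the WOX1 lines, against 66.2% of all probe sets tested. That contrast is also the loss of chalcone synthase, so the mutation and the place cannot be told apart in it. With the place in the listing as a linear covariate, 9 probe sets passed in both WOX1 lines against pap1-D. Of the 34 named genes and unnamed probe sets that had passed, the MYB12OX-linked one still passed, at a change of 5.09. The unnamed falling one was at -0.47 (adjusted p = 0.0678), and AT4G29950, AT5G57345, AT1G73600 and AT5G59130 changed sign.

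In an average over the 3 backgrounds the MYB12 arrays lie 0.5 places after their controls. That nearly cancels a drift along the listing only if the drift is linear in the place, which was not tested. A drift that levels off would not cancel. The average was chosen after seeing the data. The fit of this average gave 161 probe sets (1.08%), 86 higher and 75 lower, of which 34 had passed in the same direction with PAP1. QQS, an orphan gene that limits starch, fell by 0.63 on the log2 scale in it (SE 0.09, limma adjusted p = 3.96e-04). Its change was -0.54 with PAP1, -0.66 in Col-0 and -0.70 in tt4. On the arrays QQS read 461, 309 and 493 in pap1-D, 368, 295 and 324 in WOX1-1, and 164, 229 and 295 in WOX1-2, and with the block it passed in this comparison as well (adjusted p = 0.023). AT2G34510 rose by 0.46 ± 0.06 in the average (adjusted p = 1.88e-04), with 0.26, 0.72 and 0.40 in the 3 backgrounds, and the expansin-like gene EXLA1 by 0.58 ± 0.09 (adjusted p = 0.00127), with 0.29, 0.90 and 0.56. UF3GT fell by 0.33 on the log2 scale (adjusted p = 0.0241). That average rests partly on dim signals. The Col-0, MYB12OX, tt4 and MYB12OX/tt4 arrays read only 10.6 to 80.0, below the 85.2 of the filter. UF3GT changed by -0.44 against Col-0 and -0.30 against tt4. With PAP1, where it was bright, its change of -0.25 did not pass (limma adjusted p = 0.38). EXPA8 and CYP71B26 also passed in the average, at -0.44 and -0.42, although their changes against tt4 were 0.16 and -0.01. QQS, AT2G34510, EXLA1 and UF3GT had not passed in the WOX1 lines against pap1-D, and QQS and AT2G34510 were named after their values were seen.

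The effect of MYB12 was also compared directly between backgrounds. With PAP1 it differed from that in Col-0 for 31 probe sets (0.208%), 12 higher and 19 lower. This count was 55 with the block, 75 with the place as a covariate, 19, 16 and 14 without the first, the second or the third pap1-D array, and as low as 12 without the first Col-0 array and as high as 67 without the first WOX1-1 array. It differed from that in tt4 for 201 (1.35%), 52 higher and 149 lower. That count was 424 with the block, 86 with the place as a covariate, 63 without the arrays numbered 1, 74 without the first pap1-D array (9 higher and 65 lower) and 88 without the first MYB12OX/tt4 array. The largest difference from Col-0 among named genes was that of AT2G20870, at 2.03 ± 0.41 (limma adjusted p = 0.0364). AT2G20870 read 430, 462 and 615 on pap1-D and 381 to 658 on the WOX1 arrays, with a change of 0.03, but it read 152, 370 and 220 in MYB12OX against 1348, 772 and 1153 in Col-0. The brassinosteroid growth gene EXO, at 806, 972 and 1631 in Col-0 and 1925, 3337 and 2983 in MYB12OX, rose by 1.27 ± 0.20 there (adjusted p = 0.00266). It was already at 3136, 2948 and 4592 in pap1-D and 2446 to 4913 in the WOX1 lines. Its difference between the effects was -1.22 ± 0.27 (adjusted p = 0.0566).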

How the data were processed

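Total RNA of 24 samples was measured on ATH1 arrays. The deposited values are linear signal intensities that the authors made with MAS5, per the submitters' processing notes, and the trimmed mean of every array is 500.0. The software version and the probe-set definitions were not given in the sources used here. Array medians ranged from 163.9 to 176.7, and 3 arrays a genotype limit the precision. Control probe sets (64) were left out, as were dim probe sets, which exceeded 85.2 (170.4 divided by 2) on fewer than 3 arrays. Genotype means were fitted on log2(signal + 42.6) with limma 3.58.1 in R 4.3.3 (16 residual degrees of freedom, intensity trend, two-sided, Benjamini-Hochberg over 14935 probe sets). The fit was also run on simulated arrays with independent noise. These held no shared deviations of same-numbered arrays and no drift along the listing, so the run cannot judge their effects. All arrays of a genotype are taken as replicates, and p-values measure their spread, which may be technical.

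Names came from the platform annotation, updated through RefSeq genes of TAIR10.1 for 13436 of 13513 probe sets with 1 gene. Of the others, 503 had several genes and 8730 none. Named are the tested members of the gene lists, up to 14 rises and 14 falls outside them (passed, brighter mean above 85.2, arrays not overlapping), up to 4 a direction in each test of a difference, and up to 3 passing members a family. Names added for the average over backgrounds were chosen after their values were seen. The members, lists and tests were chosen with earlier results of these data known.

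Same-numbered arrays of pap1-D, WOX1-1 and WOX1-2 had correlated deviations from their genotype means in 9 of 9 pairs (0.107 to 0.56), as in MYB12OX/tt4 with tt4 (0.112 to 0.171), so blocked counts are given. In the first set, arrays of different number correlated at -0.44 to 0.282, and 6 of 9 arrays correlated best with their own number. Same-numbered arrays of MYB12OX and Col-0 correlated at -0.0781 to 0.141, above 0.1 in 1 of 3 pairs. No probe sequences were used here.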

Additional observations from a re-analysis of the deposited data

Results flagged for a closer look

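The effect of MYB12 differed between backgrounds by the test of the difference itself (limma, adjusted p under 0.05), which marked 31 probe sets for PAP1 against Col-0 (19 without the first pap1-D array) and 201 for PAP1 against tt4 (74 without it). Against Col-0, the differences on the log2 scale were 1.01 for AT1G79160, 1.05 for AT1G78170, 1.80 for AT5G22430 and 2.03 for AT2G20870, and -0.72 for AT3G59080, -0.83 for AT1G25550, -1.03 for AT1G68670 and -0.76 for AT1G04770. AT1G79160, AT1G78170, AT5G22430 and AT2G20870 all fell in MYB12OX against Col-0, by 0.66, 0.84, 1.60 and 2.00, while their changes in both WOX1 lines against pap1-D were 0.35, 0.22, 0.20 and 0.03, none past the threshold. AT1G79160 did pass there with the block (limma adjusted p = 0.0434), and in WOX1-2 against pap1-D alone, at 0.58 (adjusted p = 0.0034).

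Against tt4, the differences were 0.97 for COR27, 0.81 for AT1G16500, 0.76 for AT3G59570 and 0.97 for AT4G04130, and -1.26 for AT3G29120, -1.14 for AT5G48490, -1.05 for AT1G73600 and -1.70 for AT1G13650. AT5G48490 is a case of opposite movement: it rose by 0.88 in MYB12OX/tt4 against tt4 (adjusted p = 7.78e-05) and fell in WOX1-2 against pap1-D, by 0.50 on the log2 scale (adjusted p = 0.00878), whereas WOX1-1 changed by -0.02. Its signal was 3862, 3762 and 3881 in pap1-D, 2965, 2791 and 2356 in WOX1-2, 924, 1251 and 1110 in tt4, and 2096, 2051 and 1956 in MYB12OX/tt4. The MYB12 arrays follow pap1-D in the listing and precede tt4, so background and listing place cannot be told apart in this test. AT4G04130 and AT3G59570 are dim, with means below 170.4 in every genotype.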

How the results depend on the processing

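With no offset, an offset of the median or quantile normalization, every count stayed within 1.5 times its value. For both WOX1 lines against pap1-D the count of 160 became 103 without the filter, 324 with the replicate block, 9 with listing place as a covariate, 105 without the arrays numbered 1, 27 without the first arrays of pap1-D and WOX1-1, 20 in a fit of these genotypes alone, and 18 (without the first pap1-D array) to 235 leaving out 1 array. For WOX1-1 the 7 became 19, 2 and 1 with the block, the place and these genotypes alone, and 3 to 9 leaving out 1. For WOX1-2 the 355 became 551, 13 and 115 likewise, 226 without the arrays numbered 1, and 74 to 300 leaving out 1. Between the lines the 0 became 12 with the block, 11 with array weights, 3 with the place and 2 without the arrays numbered 1, and stayed 0 leaving out 1.

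For MYB12OX against Col-0, where same-numbered arrays correlated at -0.0781 to 0.141, the 150 became 338 with the block, 353 with weights, 24 with the place, 82 alone, and 34 (without the first Col-0 array) to 211 leaving out 1. For MYB12OX/tt4 against tt4 the 28 became 97, 103, 144 and 9 likewise, 12 without the arrays numbered 1, and 12 to 26 leaving out 1. The 31 of the difference from Col-0 became 55, 67, 75 and 17, 18 without the filter, 52 without the arrays numbered 1, and 12 to 67 leaving out 1. The 201 of the difference from tt4 became 424 with the block, 86 with the place, 63 without the arrays numbered 1, and 74 to 237 leaving out 1.

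Of the 34 genes and probe sets that passed with PAP1, all 34 passed with the block. In a fit of the compared genotypes alone 9 of them passed and 25 did not. Without the first arrays of pap1-D and WOX1-1, 10 passed and 24 did not. Without the arrays numbered 1, 19 passed and 15 did not. With the place, 1 still passed, 29 did not and 4 reversed: AT4G29950 (-0.036), AT5G57345 (0.065), AT1G73600 (0.094) and AT5G59130 (0.17). In the average over 3 backgrounds 8 of them passed, 25 did not and AT1G16500 (-0.028) reversed. Among those that had not passed, AT2G20870 (-0.73) and AT5G48490 (0.32) reversed there. Both unnamed probe sets, AT5G65685, AT1G25550, AT1G04770 and EXPA8 passed in all 9 fits leaving out 1 array. The causes were not tested. Beyond these, the block changed the call of 2 named genes, QQS and AT1G79160, which then passed. Signals near background carry the widest intervals.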

Other observations

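Further genes passed in the average MYB12 effect over PAP1, Col-0 and tt4, a fit chosen after the data were seen. AT3G28200 was higher by 0.27 ± 0.04 (limma adjusted p = 0.00244), AT1G12990 by 0.29 ± 0.05 (adjusted p = 0.00397) and AT1G61667 by 0.39 ± 0.07 (adjusted p = 0.00682). Lower were AT5G55620 at -0.27 ± 0.04 (adjusted p = 8.29e-04), AT2G19310 at -0.23 ± 0.04 (adjusted p = 0.00321) and AT5G02830 at -0.46 ± 0.08 (adjusted p = 0.00624). AT1G61667 had nearly equal changes in the 3 backgrounds, 0.39, 0.38 and 0.39, and read 344, 353 and 352 on pap1-D against 435 to 560 on the WOX1 arrays. AT5G55620 changed by -0.20, -0.56 and -0.07, so its average rests mainly on Col-0.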
